A study of Homo sapiens with 6 samples.

Results

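The human genes for potassium channel subunits were read from RNA-seq counts of HEK293 cells with and without a knockout of FAM60A, a subunit of the Sin3/HDAC corepressor complex. Members were the protein-coding genes whose symbol is KCN followed by 1 to 3 letters and a number, which gave 94 genes of the 62754 in the deposited table. They comprised 30 pore-forming voltage-gated (Kv) genes, 10 Kv modifier genes, 8 calcium- or sodium-activated genes, 15 inward rectifiers, 15 tandem-pore-domain genes and 16 auxiliary subunits. The control group held 3 libraries of HEK293 cells labelled Control, and the knockout group 3 libraries of HEK293 cells labelled as FAM60A knockout. HEK293 is a line grown from human embryonic kidney, and a further label names HEK293T, its derivative with the SV40 large T antigen. Selection with puromycin left a pool of knockout cells, not a clone, which had received Cas9 and guide RNAs to 3 regions of FAM60A. The sources used here do not say what the control cells received, nor whether replicates were separate cultures, so that p-values measure only the spread between these libraries.

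Potassium channels are membrane pores that let potassium leave or enter the cell along its gradient, and they set the resting potential and end electrical signals. Voltage-gated channels open on depolarization, and calcium-activated channels follow calcium inside the cell. Inward rectifiers pass potassium more easily into the cell than out of it, and tandem-pore-domain channels leak at rest. Pore-forming subunits assemble into complexes with auxiliary subunits that change their trafficking and gating. HEK293 cells are widely used to express cloned channels because their own currents are small.

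The 3 genes with the largest rises among the members tested were KCND2, KCNJ3 and KCNK2. For them, sequence upstream of an annotated transcription start is shown from RefSeq (GRCh38.p14, forward strand). By the limits given below, these genes were silent or low in every control and on in every knockout library. Capitals mark GGGCGG or its reverse complement CCGCCC, the GC-box letters. For KCND2 only 30 bases are shown, since RefSeq's gene span opens 17 bases before the 250-base window chr7:120272925-120273174 from which they come. The bases shown for KCND2 therefore lie inside its gene span, not before it. For KCNK2 the windows of 2 annotated starts are given.
KCND2 chr7:120273115-120273144: agcccgaggGGGCGGGGGCGGagaaaggtc
KCNJ3 chr2:154698445-154698694: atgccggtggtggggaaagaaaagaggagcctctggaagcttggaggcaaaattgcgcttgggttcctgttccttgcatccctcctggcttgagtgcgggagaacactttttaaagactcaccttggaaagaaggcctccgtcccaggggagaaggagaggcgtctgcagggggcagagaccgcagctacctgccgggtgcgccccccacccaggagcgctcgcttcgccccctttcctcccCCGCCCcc
KCNK2 chr1:215005292-215005541: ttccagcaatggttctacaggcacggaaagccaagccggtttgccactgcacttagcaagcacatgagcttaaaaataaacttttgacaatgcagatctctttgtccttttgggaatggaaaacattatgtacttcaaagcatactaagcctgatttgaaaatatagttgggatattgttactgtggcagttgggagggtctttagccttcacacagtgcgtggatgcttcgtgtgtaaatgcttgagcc
KCNK2 chr1:215082487-215082736: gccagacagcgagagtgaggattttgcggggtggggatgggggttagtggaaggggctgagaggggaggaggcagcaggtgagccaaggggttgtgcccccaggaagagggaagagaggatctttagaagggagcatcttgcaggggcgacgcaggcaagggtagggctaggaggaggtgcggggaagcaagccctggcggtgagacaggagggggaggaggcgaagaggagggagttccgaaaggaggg
GGGCGG, searched on both strands, had 2 matches in the KCND2 window, 1 in that of KCNJ3 and 0 in either KCNK2 window. It was found in 42.6% of the 35116 promoter windows of the same length and in 49.1% of the 108 windows of members, and TATAAA in 10.7% and 8.33%. The windows of KCND2 and KCNJ3 and the second of KCNK2 had a GC content of 63.6%, 62.4% and 63.6%, and the first of KCNK2 had 42.8%, against a median of 59.2% over 27305 genes of the promoter table and 68.2% over the 70 members with a window there.

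Total counts lay between 88361827 and 93346824 per library. Levels are given as CPM, the usual counts scaled to a common library total, here after TMM scaling, and on this scale 3 counts in 1 library correspond to 0.0308 to 0.0356 CPM; this floor covers counting error only. FAM60A itself, listed under its current symbol SINHCAF, had 113, 106 and 132 CPM in control cells and 67.5, 66.0 and 61.7 CPM in knockout cells. The fitted log2 fold change was -0.85 (SE 0.11, edgeR quasi-likelihood test with Benjamini-Hochberg adjustment, adjusted p = 0.00863), and an exact permutation test, two-sided, returned p = 0.1, the smallest possible with 3 libraries in each group. The call was kept without any one control and lost without knockout replicate 1, 2 or 3 (0.0719, 0.0571 and 0.0736). Control replicate 3 stood apart from its group: of 62 members averaging 10 counts or more, 13 differed by 4-fold or more between it and control replicate 1, and 13 between it and control replicate 2. Of all 21031 genes at such counts, 1140 and 1114 did. Between control replicates 1 and 2, 0 members did, and likewise 0 between any knockout libraries. The levels of control replicate 3 are therefore given separately throughout. Of 9 markers of HEK293 cells, 8 were expressed well enough to be tested. Of these, 2 were called (25.0%, against 16.6% of all genes tested), both lower, a direction in which 8.67% of all genes were called. LHX1 had 13.6, 12.3 and 4.04 CPM in control cells and 2.67, 2.56 and 2.68 CPM in knockout cells (log2 fold change -1.92, edgeR adjusted p = 0.0353), and NEFM went from 168, 192 and 188 counts to 93, 115 and 81 (log2 fold change -0.77, adjusted p = 0.0493). Both calls were kept only without control replicate 3 (otherwise up to 0.150 and 0.193). In that fit 5 of the 8 were called lower, as were 33.2% of all genes tested. The part of these markers in the levels of the potassium channel genes was not tested.

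Each library was scored for each gene as on (at least 1 CPM), silent (under 0.1 CPM) or low (between), and a set of libraries as on or silent where all its libraries were. Of the 94 genes, 27 were on in all sets and 23 were silent in all, or 28.7% and 24.5%, against 59.9% and 21.4% of 19979 protein-coding genes in the table. A change between on and silent was found in 2 members, KCND2 and KCNJ3 (2.13%, against 0.761% of protein-coding genes). KCND2 was silent in all controls and on in all knockout libraries, a pattern of 8 protein-coding genes (0.04%). The other 42 were low in at least 1 set. Counted per library in replicate order, 28, 28 and 38 members were on in control cells and 35, 36 and 35 in knockout cells. Control replicate 3 thus had the most members on, and control replicates 1 and 2 the fewest. The summed level of all members was 190, 197 and 381 CPM in control cells and 294, 297 and 287 CPM in knockout cells, so that the knockout libraries lay between the controls.

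**Figure D1:**
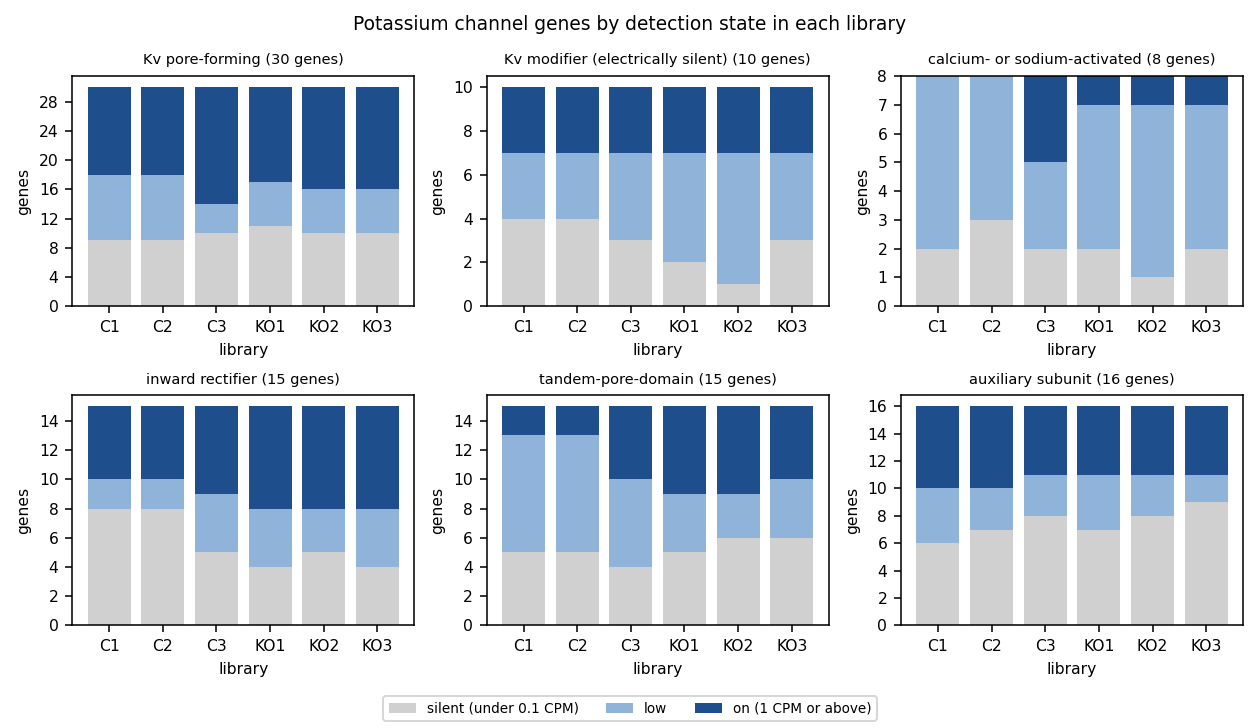
Number of potassium channel genes (vertical axis) that were silent, low or on in each of the 3 control (C1 to C3) and 3 knockout (KO1 to KO3) libraries (horizontal axis), in 6 classes. Calcium- or sodium-activated genes had 0 members on in C1 and C2, 3 in C3 and 1 in each knockout library, and tandem-pore-domain genes rose from 2 on in C1 and C2 to 5 or 6 in the other libraries.

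The 23 genes that were silent everywhere came from every class. They were KCNA4, KCNA7, KCNA10, KCNC2, KCNH5, KCNH6, KCNH7 and KCNH8 of the Kv pore-forming genes, KCNG4 of the modifiers, KCNU1 of the calcium- or sodium-activated class, KCNJ6, KCNJ13, KCNJ15 and KCNJ16 of the inward rectifiers, KCNK4, KCNK16, KCNK17 and KCNK18 of the tandem-pore-domain genes, and KCNE1, KCNE2, KCNE3, KCNMB1 and KCNMB2 of the auxiliary subunits. KCNK18, whose channel is known from sensory neurons, had 0 counts in every library, and 9 members had at most 3 counts in every library. Below 0.1 CPM the states rest on few reads, and with the silent limit at 0.05 CPM the number silent in all sets was 14. RefSeq promoter windows were found for 70 members. The silent genes with such a window (21) had a median GC content of 62.0% and a median of 8 CG dinucleotides in it, against 76.2% and 30.5 for 16 of the genes that were on in all sets, and 59.2% and 12 over 27305 genes of the promoter table.

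Of the 94 members, 63 passed the filter on low counts and were tested, and 31 were not tested. Between knockout and control, 16 of the 63 had an adjusted p of at most 0.05 in edgeR's quasi-likelihood test (25.4%, against 16.6% of the 20992 genes tested). Of the 16, 11 were higher in the knockout libraries (17.5% of the members tested, against 7.96% of all genes) and 5 were lower (7.94%, against 8.67%). The filter also let in genes with enough counts in only 1 group. KCND2, KCNJ3, KCNT2 and KCNV1 reached 10 counts in every library of the knockout group only. KCNA5, KCNH4 and KCNT1 did so in the control group only. These genes were not tested where every library had to hold at least 10 counts, so their calls depend on the filter used. Among calls with a log2 fold change of 1 or more in size, 6 were higher and 3 lower (9 members, 14.3%, against 7.06% of all genes tested). The median log2 fold change of the members tested was -0.16 and that of all genes tested -0.01. The control and knockout libraries did not overlap in 31 of the 63 (49.2%, against 41.6% of all genes tested), of which 17 were higher (27.0%, against 21.5%) and 14 lower (22.2%, against 20.1%). An unadjusted p under 0.05 was found for 26.

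These counts depended on which libraries were in the fit. Without control replicate 3, 47 of 65 tested members were called (72.3%, against 65.6% of 21686 genes), 32 higher (49.2%, against 32.4%) and 15 lower (23.1%, against 33.2%), and the median log2 fold change was 0.46. All 16 calls from the 6 libraries were among these 47. The 15 lower calls include KCNQ3 (22, 19 and 3 counts against 1, 6 and 7) and KCNE5 (25, 30 and 7 against 9, 9 and 4). Both passed the filter only without control replicate 3, a control in which they were low. Their calls are a description, since leaving out this library raised the control level. Without control replicate 1 or 2 there were 5 and 4 calls among 63 members tested (7.94% and 6.35%, against 4.89% and 3.71% of all genes tested in the same fits). Without knockout replicate 1, 2 or 3 there were 2 among 65 (3.08%, against 0.763%, 2.31% and 0.87%), which were KCND2 and KCNK2 each time. In bulk RNA, fewer cells expressing a gene and less RNA per cell cannot be told apart, and in a pool of edited cells this holds for each level below.

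**Figure D2:**
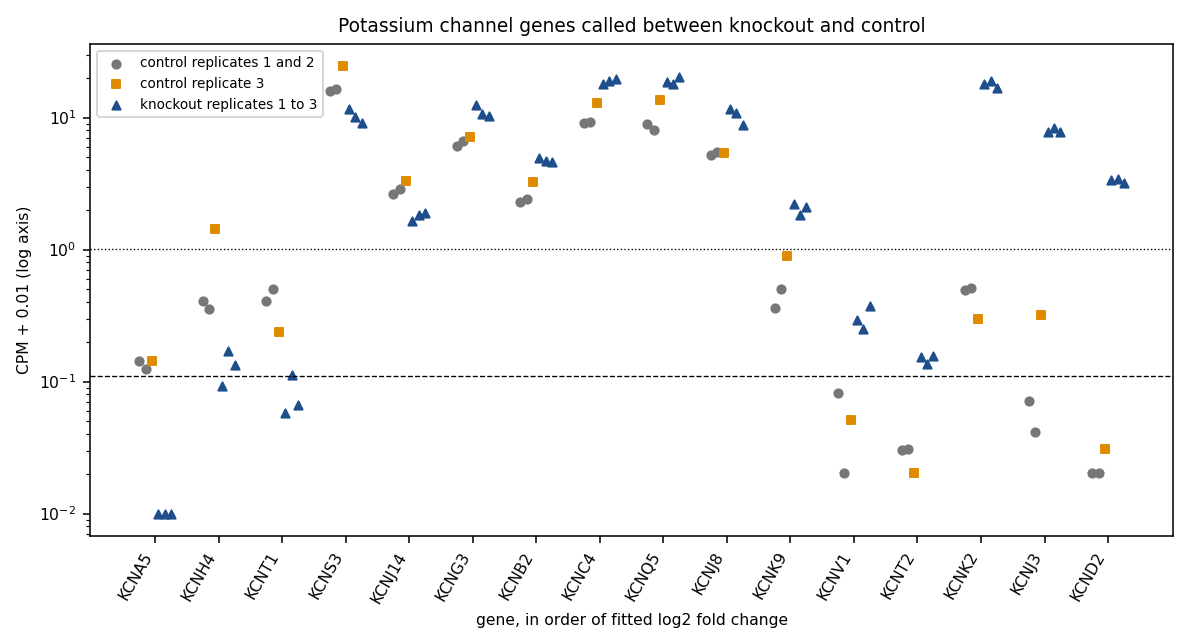
CPM + 0.01 on a log axis (vertical) for the 16 called potassium channel genes in order of log2 fold change (horizontal), with 1 point per library: control replicates 1 and 2 as circles, control replicate 3 as a square and knockout libraries as triangles. The dashed and dotted lines mark 0.1 and 1 CPM. KCND2, KCNJ3 and KCNK2 lie below 1 CPM in every control and between 3.19 and 18.8 CPM in the knockout libraries.

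Among the Kv pore-forming genes, 21 of 30 were tested and 4 rose and 2 fell. Among all genes tested, 7.96% were called higher and 8.67% lower. KCND2 encodes a subunit of the rapidly inactivating A-type channels of neurons and heart muscle. In replicate order, control cells held 1, 1 and 2 counts and knockout cells 281, 301 and 282, which is 0.0103, 0.0104 and 0.0207 CPM against 3.34, 3.43 and 3.19 CPM. No control library exceeded the floor of 3 counts, and every knockout library lay far above it. Taken against that floor, KCND2 was at least 107-fold higher in the knockout libraries (edgeR adjusted p = 0.000474), and the call held in all 6 fits without 1 library (adjusted p up to 0.0115) and in all 11 alternatives that tested the gene (1.69e-23 to 0.0286). The 2 other genes of its family had other patterns. KCND1 had 3.94, 4.09 and 3.63 CPM in control cells and 2.61, 2.67 and 2.68 CPM in the knockout libraries, groups that did not overlap but were not called (log2 fold change -0.55, SE 0.15, edgeR adjusted p = 0.0559, and 6.7e-05 to 0.221 under the alternatives). KCND3, named after its values were seen, had 0.278, 0.291 and 1.74 CPM against 0.926, 1.12 and 1.04 CPM, so that control replicate 3 was above the knockout libraries and the other controls below them. Exons of KCND3 overlap those of DDX20 on the opposite strand, and whether the counting used strand is not stated. The nearest protein-coding genes on both sides of KCND2, which were ANKRD7, LSM8, TSPAN12 and ING3, were not called (edgeR adjusted p 0.0809 to 0.219).

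KCNA5, a delayed-rectifier subunit known from the heart atrium, went the other way. It had 13, 11 and 13 counts in control cells and 0 in each knockout library. At 3 counts per knockout library the fall was at least 3.69-fold (edgeR adjusted p = 0.0140), the call was lost in the 5 fits without any one library other than control replicate 3 (adjusted p 0.0531 to 0.0713), and the adjusted p was 2.9e-05 without control replicate 3 and reached 0.0929 over all alternatives. KCNA5 lies on chromosome 12 beside KCNA1 and KCNA6, which were not called: KCNA1 had 56, 65 and 35 counts in control cells and 30, 26 and 14 in knockout cells, and KCNA6 had 41, 29 and 222 against 30, 34 and 44. Only control replicate 3 was high for KCNA6. Of the 4 tested neighbours of KCNA5, which include this pair, 1 was called, lower, where 8.67% of all genes tested were called lower. That call was kept only without control replicate 1 or 3 (edgeR adjusted p otherwise up to 0.1175). KCNA3, the delayed rectifier of T lymphocytes and the one KCNA gene on in all sets, had 1.88, 1.77 and 7.26 CPM in control cells and 5.88, 5.62 and 6.69 CPM in the knockout libraries. Its knockout libraries all lay between the controls, with a log2 fold change of 0.74 (SE 0.57, edgeR adjusted p = 0.399) that was 1.70 without control replicate 3 (adjusted p = 1.54e-10, the lowest of the alternatives, which reached 0.691).

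KCNH4, of the ether-a-go-go (KCNH) family, had 0.401, 0.343 and 1.43 CPM in control cells and 0.0831, 0.160 and 0.125 CPM in the knockout libraries. All knockout libraries were under all controls, with control replicate 3 the highest of the 6. The log2 fold change was -2.55 (SE 0.66, edgeR adjusted p = 0.0466), and it was -1.62 without control replicate 3 (adjusted p = 0.000248). Without any one of the other 5 libraries the adjusted p was 0.0652 to 0.182. The remaining Kv calls were rises with a log2 fold change under 1 in genes that were on in every library. KCNC4, of the high-threshold, fast-activating family, had 9.08, 9.23 and 12.9 CPM against 17.9, 19.0 and 19.5 CPM (log2 fold change 0.85, SE 0.17, edgeR adjusted p = 0.0247), and was the highest of its class by mean CPM. KCNB2, a slow delayed rectifier, had 2.29, 2.39 and 3.25 CPM against 4.90, 4.69 and 4.62 CPM (log2 fold change 0.84, SE 0.20, edgeR adjusted p = 0.0353). KCNQ5, an M-current subunit named after its values were seen, had 9.01, 8.07 and 13.6 CPM against 18.6, 17.8 and 20.1 CPM (log2 fold change 0.88, SE 0.22, edgeR adjusted p = 0.0411). In all 3 genes control replicate 3 was the highest control and still below every knockout library. Each of these calls was lost in the 5 fits without a library other than control replicate 3, with adjusted p from 0.0801 (KCNC4) to 0.161 (KCNQ5), and without control replicate 3 it was 1.74e-09, 2.27e-07 and 9.33e-10.

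Kv modifiers form no channel of their own and alter KCNB channels. They were tested for 8 of 10 genes, and 2 rose and 1 fell (against 7.96% and 8.67% of all genes tested). KCNV1 had 7, 1 and 4 counts in control cells and 24, 21 and 32 in knockout cells. The groups did not overlap at these low counts (7.16-fold higher by mean CPM, log2 fold change 2.80, SE 0.53, edgeR adjusted p = 0.0212). The call was kept without control replicate 1 (0.0414) or 3 (6.27e-05) and lost without control replicate 2 or any knockout replicate (0.0520 to 0.107). All 3 of its tested neighbours, which lie 272036 to 5432725 bases away, were also called higher, in calls kept only without control replicate 3. Of all genes tested, 7.96% were called higher. KCNG3, named after its values were seen, had 6.04, 6.60 and 7.07 CPM against 12.4, 10.7 and 10.3 CPM (log2 fold change 0.77, SE 0.15, edgeR adjusted p = 0.0230). KCNS3, the highest of the class by mean CPM over all 6 libraries and in every control but below KCNG3 by mean CPM in the knockout libraries, had 15.9, 16.5 and 24.5 CPM against 11.6, 10.2 and 9.16 CPM (log2 fold change -0.88, SE 0.21, edgeR adjusted p = 0.0375), so it was lower in every knockout library although control replicate 3 was the highest control. Both calls were lost without any one library other than control replicate 3, at adjusted p of 0.0824 to 0.129 for KCNG3 and 0.0578 to 0.162 for KCNS3, and were 6.76e-07 and 1.73e-06 without it.

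The calcium- or sodium-activated class had no gene on in all sets. KCNMA1, the pore of the large-conductance BK channel that opens with both voltage and calcium, had 56, 59 and 2461 counts in control cells and 888, 860 and 926 in knockout cells. That is 0.576, 0.614 and 25.5 CPM against 10.5, 9.80 and 10.5 CPM. Control replicate 3 was 42.8-fold above the mean of control replicates 1 and 2, the widest such gap among the members tested, and the knockout libraries were 17.3-fold above it with little spread. The log2 fold change over all libraries was 0.21 (SE 1.36, edgeR adjusted p = 0.929), whereas it was 4.08 without control replicate 3 (adjusted p = 2.2e-16) and turned to -0.36 without control replicate 1 and -0.34 without control replicate 2. Over the alternatives the adjusted p reached 0.963. The summed level of the class followed this gene, at 1.98, 2.26 and 30.2 CPM in control cells and 11.6 to 12.1 CPM in knockout cells.

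The sodium-activated pair moved in opposite directions at low counts. KCNT1 had 0.401, 0.489 and 0.228 CPM in control cells and 0.0475, 0.103 and 0.0566 CPM in the knockout libraries, 5.41-fold lower by mean CPM (log2 fold change -2.41, SE 0.44, edgeR adjusted p = 0.0196). KCNT2 had 2, 2 and 1 counts in control cells and 12, 11 and 13 in knockout cells, at least 4.46-fold higher (edgeR adjusted p = 0.0103). All knockout libraries lay under the controls for KCNT1 and above them for KCNT2. Of the 2 tested neighbours of KCNT1, 1 was called, lower, where 8.67% of all genes tested were called lower. That neighbour call was kept only without control replicate 3 (edgeR adjusted p otherwise up to 0.180). The KCNT1 call was lost without any one library other than control replicate 3 (adjusted p 0.0620 to 0.110), and that of KCNT2 without any one knockout library (0.0552 to 0.0774). Without control replicate 3 the adjusted p was 1.43e-06 and 0.00068. The small- and intermediate-conductance genes KCNN1, KCNN2, KCNN3 and KCNN4 were not called, and control replicate 3 held more than either other control for each of them, up to 2.58 CPM for KCNN1 against 0.288 and 0.468 CPM.

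Inward rectifiers were tested for 10 of 15 genes, and 2 rose and 1 fell (against 7.96% and 8.67% of all genes tested). KCNJ3 encodes a subunit of the channels that G protein beta-gamma subunits open, known from heart atrium and neurons. It had 6, 3 and 30 counts in control cells and 653, 732 and 686 counts in knockout cells, or 0.0617, 0.0312 and 0.310 CPM against 7.75, 8.34 and 7.77 CPM. Control replicate 3 was above the other controls, and every knockout library was far above it. By mean CPM the knockout was 59.2-fold higher, and 25.6-fold higher than control replicate 3 alone (log2 fold change 5.87, SE 0.79, edgeR adjusted p = 0.00947). The call held without any one control library (4.59e-17 to 0.0371) and was lost without knockout replicate 1, 2 or 3 (0.0687, 0.0531 and 0.0666). Its possible partners in such channels were at most low: KCNJ5 had 6, 2 and 91 counts in control cells and 29, 23 and 19 in knockout cells, KCNJ6 had at most 4 in any library and KCNJ9 at most 10. KCNJ5 was thus highest in control replicate 3 (log2 fold change -0.32, SE 1.16, edgeR adjusted p = 0.869, but 2.65 without control replicate 3, adjusted p = 6.54e-05, in a range that reached 0.957). Around KCNJ3 on chromosome 2, GALNT13, which ends 242121 bases before it and makes a glycosyltransferase, rose from 273, 257 and 81 counts to 1345, 1315 and 1328 (log2 fold change 2.86, edgeR adjusted p = 0.0136), a call kept without any one control and lost without any one knockout library (up to 0.0793). Of the other 3 neighbours tested there, GPD2 was called higher (log2 fold change 0.48, adjusted p = 0.0254), RPRM lower (-0.80, adjusted p = 0.0470) and 1 was not called, and the GPD2 and RPRM calls were kept only without control replicate 3 (otherwise up to 0.125 and 0.179). These neighbours were named after their values were seen.

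KCNJ4, KCNJ12 and KCNJ1 shared the pattern of KCNMA1. KCNJ4, a strong rectifier of brain and heart, had 46, 49 and 830 counts in control cells and 439, 512 and 399 in knockout cells. KCNJ12, a strong rectifier with the highest mean CPM of its class over all 6 libraries, had 3.69, 4.01 and 16.7 CPM against 13.2, 12.8 and 11.9 CPM; its near-identical copy KCNJ18 can share reads with it, so its values are uncertain. In control replicates 1 and 2 KCNJ11 was higher, at 6.45 and 7.39 CPM. KCNJ1, the channel of potassium secretion in the kidney tubule, had 2, 0 and 35 counts against 16, 15 and 32. In each, the knockout libraries lay above control replicates 1 and 2 and below control replicate 3, except that knockout replicate 3 equalled control replicate 3 in KCNJ1, at 0.362 CPM. Over all libraries they were not called (log2 fold changes 0.70, 0.63 and 0.91, edgeR adjusted p = 0.686, 0.490 and 0.618), and without control replicate 3 the log2 fold changes were 3.36, 1.68 and 4.35 (adjusted p = 1.75e-13, 4.46e-12 and 2.38e-05, in ranges that reached 0.928, 0.791 and 0.867). KCNJ1 and KCNJ5 lie 24060 bases apart on chromosome 11, and both had at most 6 counts in control replicates 1 and 2.

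KCNJ8 and KCNJ11 encode the pores of channels that ATP closes, which need a sulfonylurea receptor to reach the membrane. KCNJ8, named after its values were seen, had 5.18, 5.44 and 5.42 CPM in control cells and 11.7, 10.8 and 8.82 CPM in the knockout libraries (log2 fold change 0.97, SE 0.16, edgeR adjusted p = 0.0156). KCNJ11 had 6.46, 7.39 and 12.9 CPM against 10.1, 9.80 and 9.87 CPM and was not called (edgeR adjusted p = 0.736). Of the receptors, ABCC8 had 0.730, 0.645 and 8.24 CPM against 3.02, 2.77 and 2.73 CPM, again highest in control replicate 3, and ABCC9 had at most 8 counts in any library. KCNJ14, a rectifier of motor nuclei named after its values were seen, was the inward rectifier that fell, from 2.63, 2.87 and 3.31 CPM to 1.64, 1.83 and 1.87 CPM (log2 fold change -0.72, SE 0.18, edgeR adjusted p = 0.0399). Its exons overlap those of GRWD1 on the same strand by up to 285 bases, and GRWD1 had 9563 to 14017 counts. The effect of this overlap on the KCNJ14 counts was not tested. Exon overlap with another gene of the table was found for 39 members. The KCNJ8 and KCNJ14 calls were lost without any one library other than control replicate 3, at 0.0606 to 0.101 and 0.0770 to 0.188, and were 2.11e-07 and 0.000194 without it.

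Tandem-pore-domain genes were tested for 10 of 15 members, and 2 were called, both higher (against 7.96% of all genes tested). KCNK2 encodes a leak channel opened by membrane stretch, lipids and heat. It had 47, 48 and 28 counts in control cells and 1508, 1648 and 1475 counts in knockout cells, or 0.483, 0.499 and 0.290 CPM against 17.9, 18.8 and 16.7 CPM. Control replicate 3 was the lowest of the 6 libraries. The knockout mean was 42.0-fold higher than the control mean (log2 fold change 5.39, SE 0.27, edgeR adjusted p = 0.000807), and the call was kept in all 12 alternatives, at 0.0163 or less in each fit without 1 library. Per kilobase of canonical transcript, KCNK2 went from 0.127 RPKM in control replicates 1 and 2 and 0.0748 RPKM in control replicate 3 to 4.59 ± 0.270 RPKM in the knockout libraries (SD, n = 3), a level like that of KCNMB4 (4.81 ± 0.418 RPKM) and KCNJ8 (4.59 ± 0.647 RPKM), from which it did not differ beyond their spread. Next to KCNK2 on chromosome 1, KCTD3, named after its values were seen, had a log2 fold change of -0.52 (edgeR adjusted p = 0.0177, but up to 0.106 without 1 library, with the call kept only without control replicate 3), and PTPN14 and CENPF were not called.

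KCNK9, an acid-sensitive leak channel, had 34, 47 and 85 counts in control cells and 186, 161 and 184 in knockout cells. It was 3.57-fold higher by mean CPM, with no overlap (log2 fold change 1.83, SE 0.36, edgeR adjusted p = 0.0224), and the call was lost without any one library other than control replicate 3 (0.0561 to 0.113, against 1.73e-09 without that library). Of its 3 tested neighbours 1, at 808199 bases, was called higher, where 7.96% of all genes tested were called higher. That neighbour call was kept without any one control and lost without any one knockout library (edgeR adjusted p up to 0.0719). KCNK13, a channel known from microglia, had 79, 71 and 288 counts in control cells and 326, 354 and 318 in knockout cells, which did not overlap but were not called (log2 fold change 1.34, SE 0.56, edgeR adjusted p = 0.145). Without control replicate 3 its log2 fold change was 2.27 (adjusted p = 1.70e-11, in a range that reached 0.307). KCNK1, a weakly conducting leak channel, was the most abundant member in every library, at 36.6, 39.6 and 33.5 CPM in control cells and 33.2, 33.7 and 33.8 CPM in the knockout libraries. Its knockout level was 16.3 ± 0.151 RPKM (SD, n = 3), and the difference between groups was not called (log2 fold change -0.12, SE 0.10, edgeR adjusted p = 0.410).

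**Figure D3:**
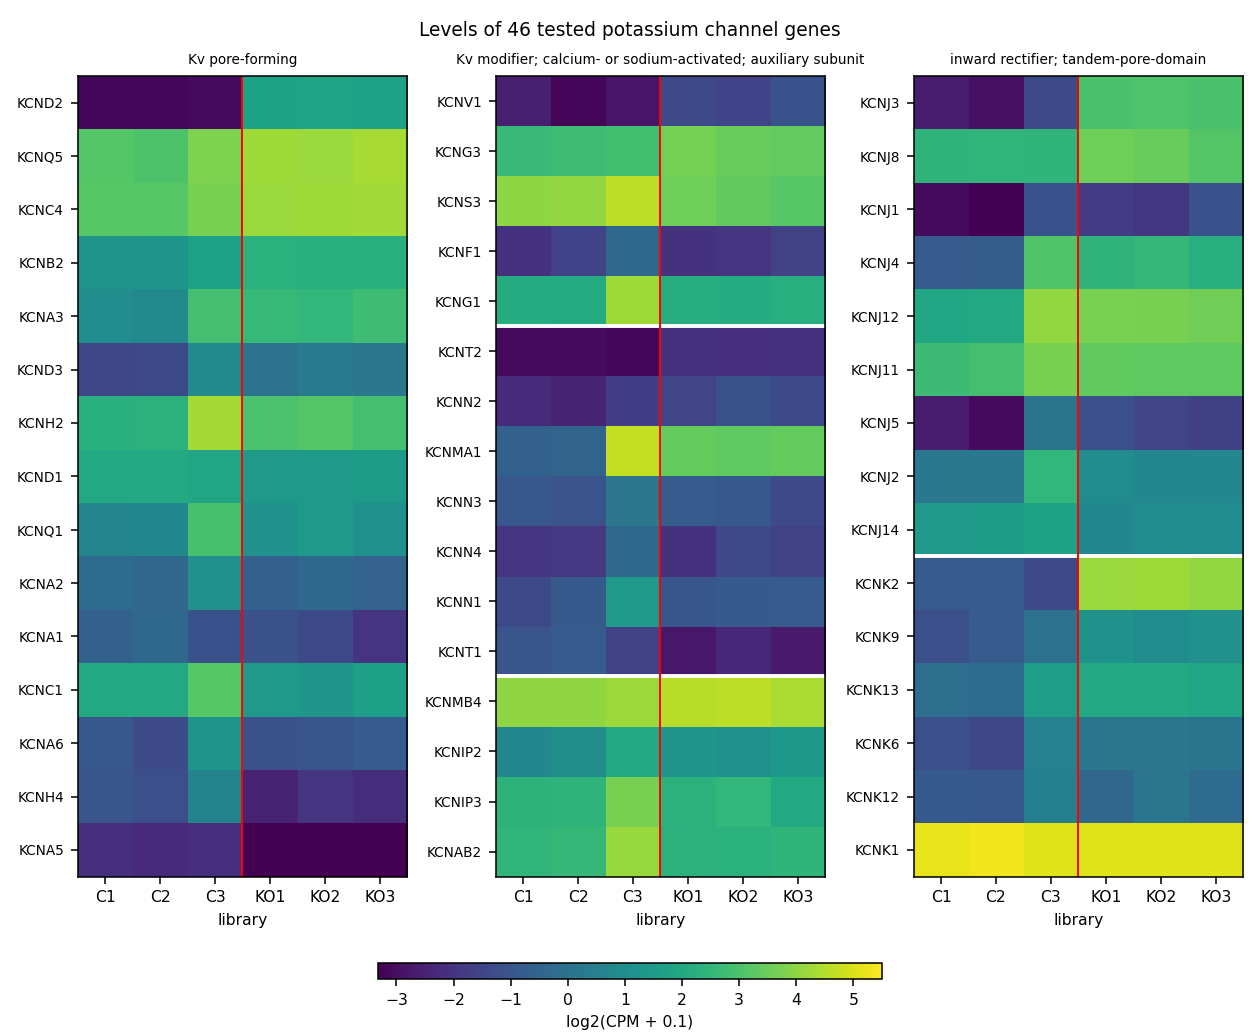
log2(CPM + 0.1), as colour, of the 46 tested potassium channel genes named in the text (rows, by class and within a class from the highest to the lowest log2 fold change) in the control (C1 to C3) and knockout (KO1 to KO3) libraries (columns), parted by a red line. KCND2, KCNJ3 and KCNK2 are dark in all 3 controls and bright in all knockout libraries, whereas KCNMA1, KCNJ4 and KCNA3 are also bright in C3.

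Of the 16 auxiliary subunits 7 were tested. Over all libraries 0 were called by edgeR (against 16.6% of all genes tested), and 2 had an unadjusted p under 0.05. DESeq2 called 2 and limma-voom 0. Without control replicate 3, edgeR called 1 higher and 2 lower of 8 tested, where 32.4% of all genes tested were called higher and 33.2% lower. KCNE5, 1 of the lower ones, had 25, 30 and 7 counts against 9, 9 and 4. It passed the filter only without control replicate 3, in which it was low, so its call is a description. KCNMB4, a BK channel subunit of the brain, was the highest of them and the one KCNMB gene on in all sets, at 16.3, 16.1 and 18.6 CPM in control cells and 23.2, 24.4 and 20.5 CPM in the knockout libraries. The groups did not overlap (log2 fold change 0.42, SE 0.12, edgeR adjusted p = 0.0650; 9.21e-05 without control replicate 3, in a range that reached 0.221). KCNIP2 and KCNIP3, calcium-binding partners of KCND channels, were on in every library, at 1.62, 1.95 and 4.11 CPM against 2.32, 2.03 and 2.52 CPM for KCNIP2 and 5.07, 5.23 and 12.9 CPM against 4.95, 5.70 and 4.04 CPM for KCNIP3. The groups overlapped for both, and control replicate 3 was highest; they were named after their values were seen. KCNIP1 and KCNIP4, of the same family, had at most 11 and 13 counts in any library. DPP6 and DPP10, partners of KCND channels from another family, had at most 7. The 5 KCNE genes, single-span partners of several channels, had at most 30 counts in any library.

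Partner genes without a KCN symbol were taken from a list of 17, of which 11 were tested and 2 were called, 1 higher and 1 lower (18.2%, against 16.6% of all genes tested). The lower one was KCNRG, a soluble inhibitor of channel assembly, which fell from 20, 17 and 22 counts to 8, 6 and 5 (log2 fold change -1.46, SE 0.32, edgeR adjusted p = 0.0301). The call of KCNRG was lost without any one library other than control replicate 3 (adjusted p 0.0828 to 0.142), and without that library it was kept (0.00637). LRRC26, a BK channel subunit of gland cells, had 34, 51 and 275 counts against 217, 264 and 208, and like KCNMA1 was not called (edgeR adjusted p = 0.353). It was called without control replicate 3 (adjusted p = 2.40e-10). LRRC38, another BK partner, went the other way, with 89, 94 and 10 counts against 3, 1 and 1. It did not pass the filter over all libraries. It passed without control replicate 3, a control in which it was low, and its log2 fold change there was -5.56. That value is a description, since leaving out this library raised the control level. LRRC52 and LRRC55, of the same family, had at most 5 and 1 counts in any library. For comparison, of 49 genes for other cation and chloride channels 36 were tested, and 5 were called, 1 higher and 4 lower (13.9%). The higher one was CACNB4, a calcium channel subunit, and the lower ones were SCN3B, HCN4, CACNG4 and CLCN4, all named after their values were seen. CLCN4 was low in control replicate 3 too, with 1336, 1369 and 13 counts in control cells and 3, 0 and 0 in knockout cells. The calls of CLCN4 and CACNB4 were kept only without control replicate 3 (otherwise up to 0.158 and 0.129), CACNG4 was lost in 2 of the 6 fits without 1 library (up to 0.0724), SCN3B in 1 (0.0529), and HCN4 in 0.

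The position of control replicate 3 was then set against that of the knockout libraries for all 63 tested members, as a description with no test, since this library was singled out for its distance from the others. On log2(CPM + 0.1), control replicate 3 lay at least 2-fold above both other controls in 29 members (46.0%, against 11.8% of all genes tested) and at least 2-fold below both in 0 (against 5.17%). This 0 covers only members that passed the filter. KCNQ3 and KCNE5, not tested over all libraries, were lowest of the controls in control replicate 3. They had 0.226, 0.198 and 0.0310 CPM and 0.257, 0.312 and 0.0724 CPM in control cells. In 10 of the 29 (15.9% of the members tested, against 5.4% of all genes), every knockout library was also at least 2-fold above, among them KCNA3, KCND3, KCNMA1, KCNJ1, KCNJ3, KCNJ4, KCNJ12, KCNK6 and KCNK13. In the other 19 (30.2%, against 6.29%) the knockout libraries were not. These included KCNA2, KCNA6, KCNC1, KCNH2, KCNH4 and KCNQ1 of the Kv pore-forming genes, KCNF1 and KCNG1 of the modifiers, KCNN1, KCNN3 and KCNN4, the inward rectifiers KCNJ2 and KCNJ5, KCNK12, and the auxiliary KCNAB2, KCNIP2 and KCNIP3. KCNH2, the pore of the rapid delayed rectifier of the heart, is an example at higher counts, with 4.79, 4.93 and 19.6 CPM in control cells and 7.92, 8.67 and 7.17 CPM in the knockout libraries. Only the knockout libraries were 2-fold above in KCND2, KCNK2 and KCNK9 (4.76%, against 2.33%), and 2-fold below in KCNA5 and KCNT1 (3.17%, against 1.85%). Members singled out only by this position were named after their values were seen.

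**Figure D4:**
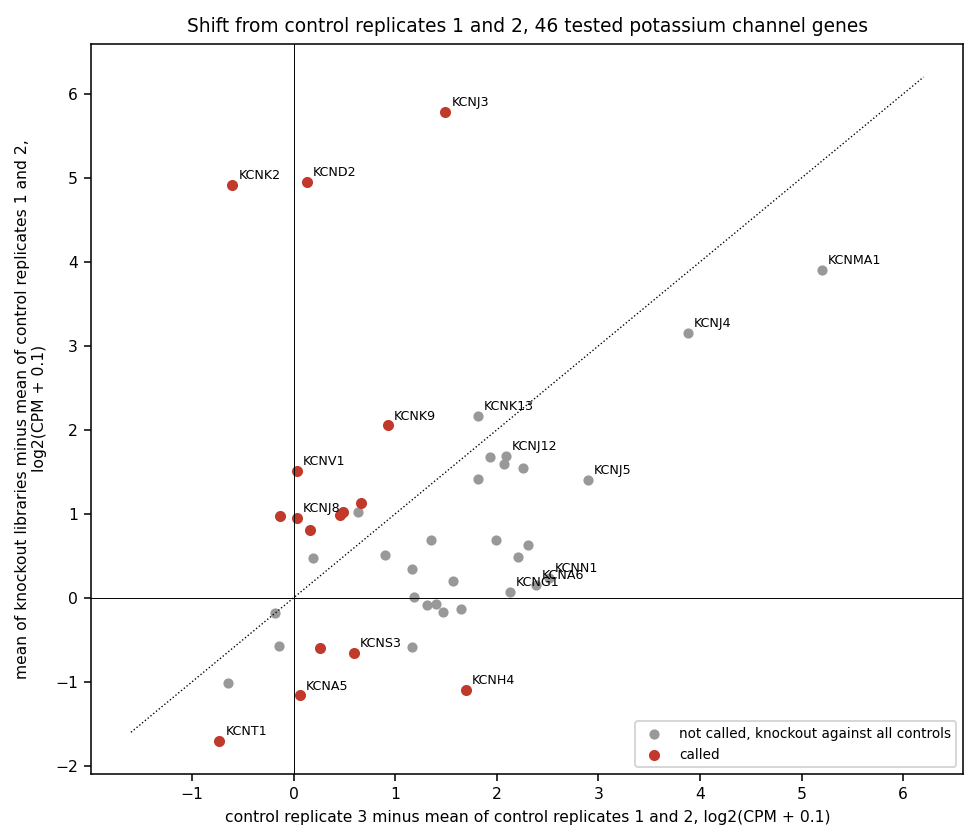
Each point is 1 of 46 potassium channel genes of the 63 tested, those named in the text: the horizontal axis is control replicate 3, and the vertical axis the mean of the knockout libraries, each minus the mean of control replicates 1 and 2, on log2(CPM + 0.1), with called genes in red and a dotted line of equal shift. Both axes share control replicates 1 and 2. KCND2, KCNJ3 and KCNK2 lie high above the dotted line, while KCNN1, KCNA6 and KCNG1 lie to the right, near 0 on the vertical axis.

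Markers of other cell types were read beside these results, with 16.6% of all genes tested called. Of 5 neuronal markers, SYT1, a calcium sensor of synaptic vesicles, rose from 0.195, 0.167 and 0.259 CPM to 17.7, 16.8 and 17.2 CPM (log2 fold change 6.37, edgeR adjusted p = 0.000427), and SNAP25 of the vesicle fusion machinery fell from 283, 258 and 239 counts to 52, 60 and 63 (adjusted p = 0.0037), while STMN2 and ELAVL3 had at most 22 and 10 counts in any library. The summed level of the 5 was 4.86 to 11.9 CPM in control cells and 20.8 to 21.5 CPM in the knockout libraries, and most of the latter was SYT1. RBFOX3, like many members, was highest in control replicate 3, at 860 counts against 164 and 185 in the other controls. In the fibroblast list of 5, DCN (0, 1 and 1 counts against 30, 33 and 33) and LUM were called higher and COL1A1 lower, in the muscle list DES and in the endothelial list VWF were called lower, the 4 blood markers were too low to test, and of 2 hepatocyte markers 1 was tested and not called. The DCN, SYT1 and SNAP25 calls were kept in every fit without 1 library, that of DES was lost without any one knockout library (up to 0.0796), and those of LUM, COL1A1 and VWF were kept only without control replicate 3 (otherwise up to 0.162, 0.163 and 0.113). Their part in the levels of the potassium channel genes was not tested.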

How the data were processed

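RNA was measured by poly(A)-selected, strand-specific RNA-seq in 3 control and 3 FAM60A-knockout libraries. The authors deposited raw counts for each Ensembl gene as whole numbers. The paper's methods name Salmon on hg38, the submitters' processing notes STAR 2.7.10b, featureCounts 2.0.0 and hg38, and a label hg19, and the use of strand in counting is not given in the sources used here. Symbols were paired with Ensembl identifiers by the gene tables used here. The members, lists and tests were chosen with earlier results of these data known.

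Counts were scaled by TMM, filtered by filterByExpr (minimum count 10) and tested by the two-sided quasi-likelihood F-test of edgeR 4.0.16 (R 4.3.3), with Benjamini-Hochberg adjustment over all 20992 genes tested. An adjusted p of 0.05 or less made a call. RPKM used canonical transcript lengths. Named were members called with a log2 fold change of 1 or more in size, or of 2 or more without control replicate 3 (up to 15), switched members, the highest member of each class, and the one member on in its subfamily. Some genes that meet this rule are not reported here; they stay in all counts. Alternatives were DESeq2 1.42.0, library size in place of TMM, limma-voom on quantile-normalized values (limma 3.58.1), all genes unfiltered, at least 10 counts in every library, the replicate number as a block, and each library left out. Total counts were 88361827 to 93346824 per library; floors cover counting error only.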

Additional observations from a re-analysis of the deposited data

How the results depend on the processing

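Of 16 calls among potassium channel genes, 9 of them with a log2 fold change of 1 or more in size, 9 and 2 were left when every library had to hold at least 10 counts, a filter that takes out genes with few counts in any library. Fits without 1 library gave 2 to 47 and 2 to 27, the highest without control replicate 3. The other settings gave 14 to 21 calls. With DESeq2 the partner genes called went from 2 to 4 and the other ion channels from 5 to 9. The latter were 8 with library size in place of TMM, which shifted the median log2 fold change of all genes tested to -0.12. With at least 10 counts in every library 1 partner gene was called. Without 1 library, 0 to 10 partner genes and 1 to 27 other ion channels were called, and the fits with 0 partner calls had 3 or 4 at an unadjusted p under 0.05. The median log2 fold change of the members tested, -0.16, became -0.18 with DESeq2, -0.18 with at least 10 counts in every library, -0.27 with library size, -0.091 with limma-voom and -0.13 without a filter, and lay between -0.33 and 0.46 without 1 library. The log2 fold change of FAM60A lay between -0.92 and -0.78 without 1 library. Silence at under 0.05 CPM left 14 of 23 genes silent in all sets and 1 of 2 switched; without 1 library there were 23 to 25 and 2. KCNJ5 turned from -0.32 to 0.84 with limma-voom, KCNMA1 from 0.21 to -0.36 and -0.34 without control replicates 1 and 2, and without any 1 library they lay between -0.87 and 2.65 and between -0.36 and 4.08. Unless stated, the cause was not tested. Depth limits the lowest members: 3 counts were 0.0308 to 0.0356 CPM.

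With the replicate number as a block, 3 members were called (KCND2, KCNJ3 and KCNK2, all 3 past a log2 fold change of 1), 0 partner genes (3 at an unadjusted p under 0.05) and 3 other ion channels. The median log2 fold change of the members was 0.057, KCNJ5 had 0.91, and FAM60A had -0.84 (edgeR adjusted p = 0.0551). Same-numbered libraries did not deviate together from their group means (correlations 0.0101, 0.0306 and -0.0362 for numbers 1, 2 and 3). Not every library correlated best with its own number. Control replicate 3 differed 4-fold or more from control replicates 1 and 2 in 1140 and 1114 of 21031 genes. Between the latter pair 0 genes did. The control deviations thus mostly reflect that library, and the check cannot tell whether same-numbered libraries shared a culture or batch.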
